A study of Mus musculus with 15 samples.

Results

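XY gonads that lack both *Amh* and *Inhbb* (dKO XY) were set against wild-type ovaries (control XX) at embryonic day 15.5 (E15.5), on 5 arrays each, which are 10 of the 15 arrays of the series. Arrays were assigned by their labelled genotype and tissue, and all 65956 transcript clusters that are not control probes were compared, of which 61635 lie on autosomes. A transcript cluster is the unit of this array for a single transcribed region. The other 5 arrays hold wild-type testes (control XY), and their levels are given beside the comparison as the testis level.

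The dKO XY embryos were Amh-/-; Inhbb-/- and came from crosses of Amh+/-; Inhbb+/- mice on a C57BL/6 background, whereas control XX and control XY embryos were wild-type littermates. The labels give E15.5 for all arrays, whereas the data statement of the study lists this set under an earlier stage, and the 5 replicates per genotype are the number its methods give for E15.5. Each gonad was freed of the mesonephros before freezing, so every array reads the RNA of all gonadal cell types together. Both alleles are absent from every cell of the dKO XY embryo from conception. The labels call the dKO XY tissue a testis.

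The bipotential gonad becomes a testis when supporting cells turn into Sertoli cells under SRY and SOX9, and an ovary when the same lineage forms pregranulosa cells under WNT4, RSPO1 and FOXL2. Sertoli cells release anti-Müllerian hormone (AMH, from *Amh*) and activin B, a dimer of the beta subunit from *Inhbb*. They also signal through desert hedgehog to interstitial cells, which form the steroid-making fetal Leydig cells. Germ cells enter meiosis in the fetal ovary, and in the fetal testis they instead stop dividing and switch on a male program of transposon control.

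The values are the deposited log2 signals, normalized by the authors, and all levels and differences here are in those units. The scale passes 16, the limit of a 16-bit scanner, for 891 clusters. It may therefore be stretched by an unstated amount, which was not tested, and a difference of 1 may be less than a doubling. Array medians ran from 5.17 to 5.33, and probes for background had medians of 3.46 to 3.74. On the first principal component the dKO XY arrays scored -5.44 to 17.1, control XY 51.5 to 80.9 and control XX -80 to -62.8. *Amh* averaged 4.51 ± 0.15 in dKO XY, 11.47 ± 0.49 in control testes and 4.31 ± 0.14 in control XX (SD, n = 5 each), and *Inhbb* averaged 9.27 ± 0.1 in dKO XY gonads, 10.53 ± 0.12 in testes and 9.18 ± 0.1 in ovaries, although probes outside the deleted parts do not test a deletion. Neither targeted gene was called between dKO XY and control XX, and 5 Y-linked genes were 1.08 to 5.13 higher in dKO XY. Control XX replicate 1 stood nearer to the testis than the other ovaries in several steroid and germ cell genes, with for instance 6.74 for *Cyp11a1* against 4.97 to 5.37 on the other 4 arrays. For other germ cell genes, *Dazl* (15.85), *Sohlh2* (12.44) and *Figla* (8.2), the same array was the ovary farthest from the testis. Without control XX replicate 1, 746 autosomal clusters were higher and 873 were lower in dKO XY than in control XX, against 721 and 742 with it.

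A cluster was called where the limma p adjusted over all clusters was below 0.05 and the difference was at least 1. Of the autosomal clusters, 721 (1.17%) were higher and 742 (1.2%) were lower in dKO XY gonads than in ovaries. Over 28158 autosomal genes, each read by its brightest cluster, 476 (1.69%) were higher and 438 (1.56%) were lower. With the sex chromosomes included, 803 clusters (1.22%) were higher and 846 (1.28%) were lower, and of 30176 genes 527 (1.75%) were higher and 516 (1.71%) were lower. The higher genes reached further. Their median size was 1.45, with 124 at 2 or more and 20 at 4 or more. For the lower genes the median size was 1.3, with 43 at 2 or more and 0 at 4 or more. The median difference of all autosomal genes was 0.03.

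The 6 marker genes showed both sides. *Cst9*, a cystatin gene of Sertoli cells, had signals of 13.96, 14.25, 14.31, 14.06 and 14.12 in dKO XY, against 6.61, 5.23, 5.19, 4.49 and 4.94 in control XX. No ovary came near any dKO XY gonad, and the difference was 8.85 ± 0.29 (SE; limma adjusted p = 6.4e-12). Every dKO XY array was also above every testis (13.15 ± 0.41), by 0.99 ± 0.29 (limma adjusted p = 0.039), just under the size for a call. *Sox9*, the transcription factor that directs Sertoli cell fate, read 9.8, 9.95, 9.78, 10.01 and 9.94 in dKO XY and 6.99, 7.01, 6.92, 7.01 and 6.81 in control XX. The groups were tight and apart by 2.95 ± 0.08 (limma adjusted p = 3.8e-13), and the dKO XY mean of 9.9 ± 0.1 lay beside the 9.99 ± 0.13 of control XY. *Foxl2*, the transcription factor of pregranulosa cells, read 5.24, 5.09, 5.29, 4.97 and 5.47 in dKO XY and 7.05, 6.8, 6.98, 7.24 and 7.72 in control XX. It stopped short of the ovary on every array, with a difference of -1.95 ± 0.15 (limma adjusted p = 1.9e-07), but was higher than in control XY (4.13 ± 0.19), by 1.08 ± 0.15 (limma adjusted p = 0.00021).

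**Figure D1:**
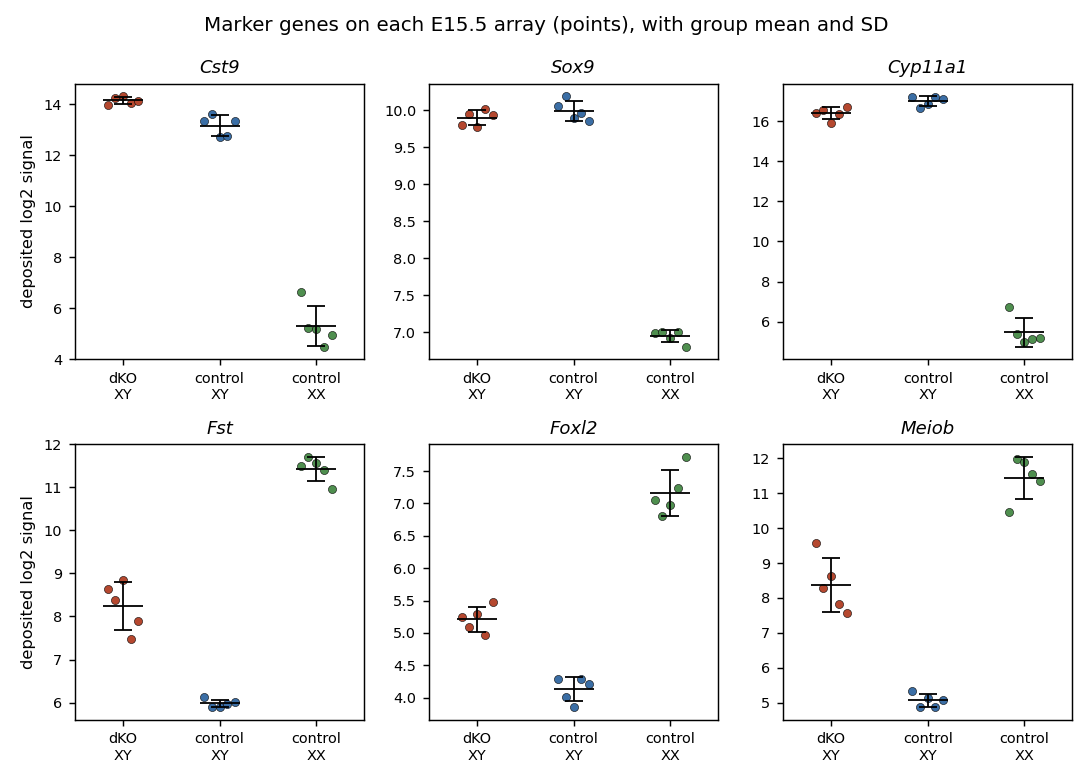
Deposited log2 signal (vertical axis, each panel with its own range) of 6 marker genes on each array, with dKO XY, control XY and control XX from left to right; points are arrays and bars are the group mean and SD (n = 5). Cst9, Sox9 and Cyp11a1 in dKO XY lie far above control XX, Cst9 also above every control XY array, whereas Fst, Foxl2 and Meiob sit between the controls.

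The autosomal genes were then placed by level, using the contrast of the controls. These contrasts share arrays, so the classes describe levels and are not independent evidence. Between dKO XY gonads and testes, 245 autosomal genes (0.87%) were higher and 205 (0.728%) were lower in dKO XY. Of 859 genes higher in testes than in ovaries (3.05% of autosomal genes), 322 (37.5%) stayed testis-like, here meaning called against control XX and not against control XY. That class is not one of equal levels, since 106 of the 322 were below testes and 11 above them at a limma adjusted p below 0.05, with differences under 1. A further 54 (6.29%) lay between and were called against both, and 4 were above both. The remaining 479 (55.8%) were not called against control XX, and of these 108 were called below control XY while 371 were called against neither control. Their median differences from control XX were 0.3 for the 108 and 0.68 for the 371.

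Of 984 genes higher in ovaries than in testes (3.49%), 292 (29.7%) were called below control XX and not called against control XY, and 123 (12.5%) lay between and were called against both controls. The median difference from control XX was -1.24 for the 292 and -1.6 for the 123. Of the 292, 149 were above testes at a limma adjusted p below 0.05 by less than 1. Of the 568 (57.7%) not called against control XX, 80 were called above control XY and 488 against neither. Positions were expressed as the distance from the ovary mean, in percent of the distance between the ovary mean and the testis mean. On this measure the dKO XY mean of the testis-higher genes had a median position of 63.4% (quartiles 43.3% to 81.9%). For the ovary-higher genes the median position was 61.6% (quartiles 50.9% to 73.5%). Genes with a group mean above 16 were left out of these positions.

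**Figure D2:**
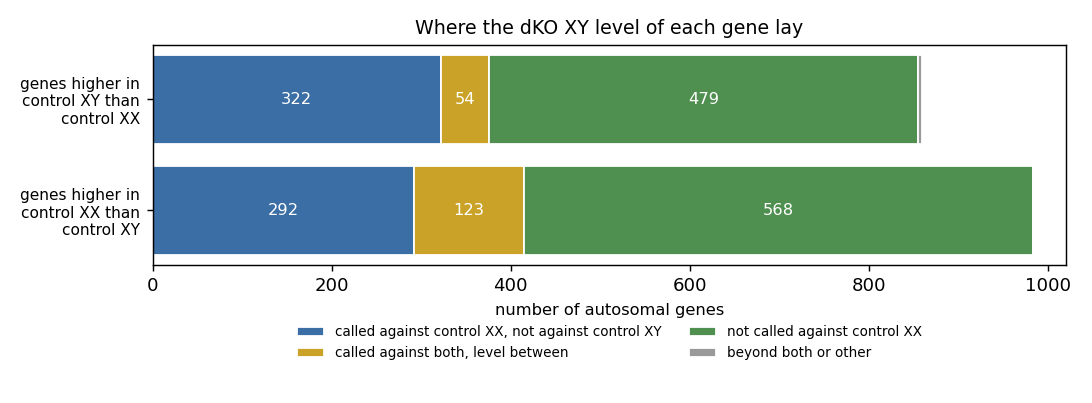
Number of autosomal genes (horizontal axis) higher in testes than in ovaries (upper bar) and higher in ovaries than in testes (lower bar), split by where the dKO XY level lay. In the upper bar 322 genes were testis-like, 54 between and 479 not called against control XX, and in the lower bar 292 were called against control XX alone, 123 between and 568 not called against control XX.

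Genes of steroid synthesis led the genes higher in dKO XY. Of 14 measured genes of steroid synthesis and fetal Leydig cells, 9 were higher in dKO XY gonads than in ovaries and 1 was lower, with a median difference of 2.0. Where a list below has 0 genes called in a direction, 0 to 9 of its genes passed an unadjusted limma p below 0.05 there. *Cyp11a1*, which encodes the enzyme that cleaves the cholesterol side chain, had signals of 16.38, 16.55, 15.91, 16.34 and 16.72 in dKO XY, against 6.74, 5.37, 4.97, 5.15 and 5.16 in control XX. Every dKO XY array was far above every ovary, by 10.9 ± 0.26 on average (SE; limma adjusted p = 1.9e-13). The difference without control XX replicate 1 was 11.22. *Cyp17a1*, the next enzyme on the way to androgens, read 18.76, 19.08, 18.66, 18.9 and 18.96 in dKO XY and 11.12, 9.11, 8.58, 8.01 and 8.5 in control XX. Its difference of 9.81 ± 0.39 (limma adjusted p = 7.7e-11) has its upper end, as that of *Cyp11a1*, on the part of the scale above 16. A second, dim cluster of *Cyp11a1* near background was not called, at 4.66 in dKO XY and 4.95 in control XX.

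*Star*, whose product carries cholesterol into mitochondria, read 13.73, 14.25, 13.5, 13.95 and 14.21 in dKO XY and 7.05, 6.71, 6.36, 7.07 and 6.73 in control XX. All 5 dKO XY arrays were higher, by 7.15 ± 0.18 (limma adjusted p = 2.3e-13), and the mean was -0.6 ± 0.18 from that of control XY (14.53 ± 0.34). *Hsd3b1*, which encodes a 3-beta-hydroxysteroid dehydrogenase, was higher by 5.33 ± 0.13 (limma adjusted p = 2.2e-13), with 14.75 ± 0.14 in dKO XY, 14.64 ± 0.23 in control testes and 9.42 ± 0.27 in control XX. *Scarb1*, a lipoprotein receptor for cholesterol uptake, was higher by 3.66 ± 0.15 and *Fdx1*, the electron donor of mitochondrial steroid enzymes, by 2.42 ± 0.18. None of these 6 genes was called between dKO XY gonads and testes. *Star* (limma adjusted p = 0.045) and *Fdx1* (-0.59 ± 0.18; limma adjusted p = 0.044) were below testes by less than 1. In whole gonads, more cells of a type and more RNA per cell cannot be told apart.

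The adrenal-type enzymes moved with them. *Cyp11b1*, which makes corticosterone in the adrenal cortex, read 8.37, 9.78, 9.68, 9.78 and 9.74 in dKO XY and 4.63, 4.81, 4.65, 4.83 and 4.93 in control XX. The lowest dKO XY array, replicate 1, was still well above the ovaries, and the mean difference was 4.7 ± 0.28 (limma adjusted p = 9.8e-09). *Cyp21a1*, the adrenal 21-hydroxylase, differed by 1.57 ± 0.12 (limma adjusted p = 1.3e-07), with 7.74 ± 0.23 in dKO XY, 7.27 ± 0.22 in control testes and 6.17 ± 0.12 in control XX. The exception in this list was *Thbs2*, which encodes the matrix protein thrombospondin 2. It read 9.02, 9.33, 9.12, 8.71 and 9.07 in dKO XY and 12.06, 12.27, 12.3, 11.96 and 12.01 in control XX, and with no overlap it was lower by 3.07 ± 0.16 (limma adjusted p = 2.2e-09), at the level of control XY (9.44 ± 0.4).

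Enzymes of cholesterol synthesis were higher too. Of 15 measured genes of cholesterol synthesis and uptake, 11 were higher in dKO XY gonads than in ovaries and 0 were lower, and the median difference was 1.4. *Fdps*, farnesyl diphosphate synthase, read 11.89, 12.02, 11.62, 12.27 and 12.37 in dKO XY and 9.98, 9.08, 9.26, 9.72 and 9.69 in control XX. Its groups were apart by 2.49 ± 0.18 (limma adjusted p = 1.1e-07). *Lss*, lanosterol synthase, was higher by 2.06 ± 0.15, *Cyp51*, which demethylates lanosterol, by 2.03 ± 0.11, and *Sqle*, squalene epoxidase, by 1.4 ± 0.1. In 10 of the 11 genes called higher, dKO XY replicate 3 was the lowest of the dKO XY arrays. None of the 15 genes was called between dKO XY gonads and testes, but the median difference from control XY was -0.49. The list mean was 9.85 to 10.32 on the dKO XY arrays and 10.42 to 10.77 in control XY. *Lss* (-0.74 ± 0.15; limma adjusted p = 0.0046), *Cyp51* (-0.67 ± 0.11; limma adjusted p = 0.0011) and *Sqle* (-0.5 ± 0.1; limma adjusted p = 0.0042) were below testes by less than 1. *Fdps* differed from control XY by -0.54 ± 0.18 (limma adjusted p = 0.077).

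Sertoli cell genes were next. Of 28 measured, 19 were higher in dKO XY gonads than in ovaries and 0 were lower, with a median difference of 1.49. The mean over the list was 8.39 to 8.66 on the dKO XY arrays, 8.92 to 9.21 in control XY and 6.39 to 6.6 in control XX, so the groups did not overlap. Of the 28 genes, 14 were testis-like, 4 lay between the controls, 4 were testis-higher but not called against control XX, and *Cldn11* was above both controls. The other 5 were not called between the controls or against control XX.

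Among the testis-like genes were several listed here as Sertoli cell genes, although the arrays do not show which cells gave each signal. *Dhh*, desert hedgehog, read 8.07, 8.29, 8.09, 8.3 and 8.74 in dKO XY and 5.02, 5.04, 5.13, 4.87 and 4.99 in control XX. The gap of 3.29 ± 0.11 (limma adjusted p = 5.9e-12) had no overlap, and the dKO XY mean was -0.85 ± 0.11 from that of control XY, short of the size needed for a call. *Dmrt1*, a transcription factor that keeps Sertoli cell identity in the postnatal testis, read 9, 8.38, 8.2, 8.93 and 8.85 in dKO XY and 7.01, 5.44, 5.04, 6.57 and 6.27 in control XX. The ovaries spread widely, with replicate 1 the highest, yet stayed below every dKO XY array, and the difference was 2.61 ± 0.29 (limma adjusted p = 9.1e-06). *Ptgds*, a prostaglandin D synthase, differed by 3.63 ± 0.14 and *Nr5a1*, a nuclear receptor of supporting and steroid-making cells, by 1.68 ± 0.08. *Cyp26b1*, which breaks down retinoic acid, had a mean of 8.97 ± 0.13 in dKO XY, 8.64 ± 0.41 in control testes and 6.01 ± 0.14 in control XX, a difference from control XX of 2.96 ± 0.15 (limma adjusted p = 1.9e-09). *Erbb4*, a receptor for neuregulins, differed from control XX by 2.2 ± 0.08 and *Etv5*, an ETS factor, by 2.03 ± 0.23. Against control XY, *Erbb4* differed by -0.48 ± 0.08 (limma adjusted p = 0.001) and *Etv5* by 0.79 ± 0.23 (limma adjusted p = 0.036).

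The Sertoli cell genes that lay between the controls were *Hsd17b3*, *Defb19*, *Fshr* and *Gdnf*. *Hsd17b3*, which makes testosterone from androstenedione, read 11.5, 11.63, 10.85, 11.98 and 12.04 in dKO XY and 6, 5.73, 5.02, 5.28 and 5.78 in control XX. It was higher than in the ovary by 6.04 ± 0.23 (limma adjusted p = 5.2e-11), and its mean was -2.23 ± 0.23 from that of control XY (13.83 ± 0.36; limma adjusted p = 1.5e-05). *Fshr*, the receptor of follicle-stimulating hormone, read 6.3, 6.29, 6.07, 6.34 and 6.62 in dKO XY and 5.06, 4.9, 5.12, 4.86 and 5.33 in control XX. The difference was 1.27 ± 0.19 (limma adjusted p = 0.0002), less than midway to the control XY mean of 8 ± 0.52, at a position of 43.2%. *Defb19*, a beta-defensin gene, lay at 80.7% of the way to the testis and *Gdnf*, a growth factor for spermatogonia, at 51.8%.

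A few Sertoli cell genes came down to or near the ovary level. *Hsd17b1*, another 17-beta-hydroxysteroid dehydrogenase gene, read 6.14, 6.69, 6.11, 6.48 and 6.85 in dKO XY and 5.63, 5.6, 5.61, 5.56 and 5.35 in control XX. All dKO XY arrays were above the ovaries, but the difference of 0.9 ± 0.25 (limma adjusted p = 0.019) was under 1, and control XY lay far higher at 10.73 ± 0.68. *Serpina5*, a protease inhibitor gene, averaged 5.75 ± 0.19 in dKO XY, 8.48 ± 0.96 in control testes and 5.08 ± 0.26 in control XX, and differed from control XX by 0.67 ± 0.33 (95% interval -0.02 to 1.36). *Kazald1*, a secreted protein gene, read 6.22, 6.35, 6.13, 6.11 and 6.39 in dKO XY and 5.72, 6.5, 6.42, 6.22 and 5.95 in control XX. Here the groups overlapped, and the 95% interval of the difference was -0.27 to 0.42, whereas control XY averaged 8.57 ± 0.33.

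**Figure D3:**
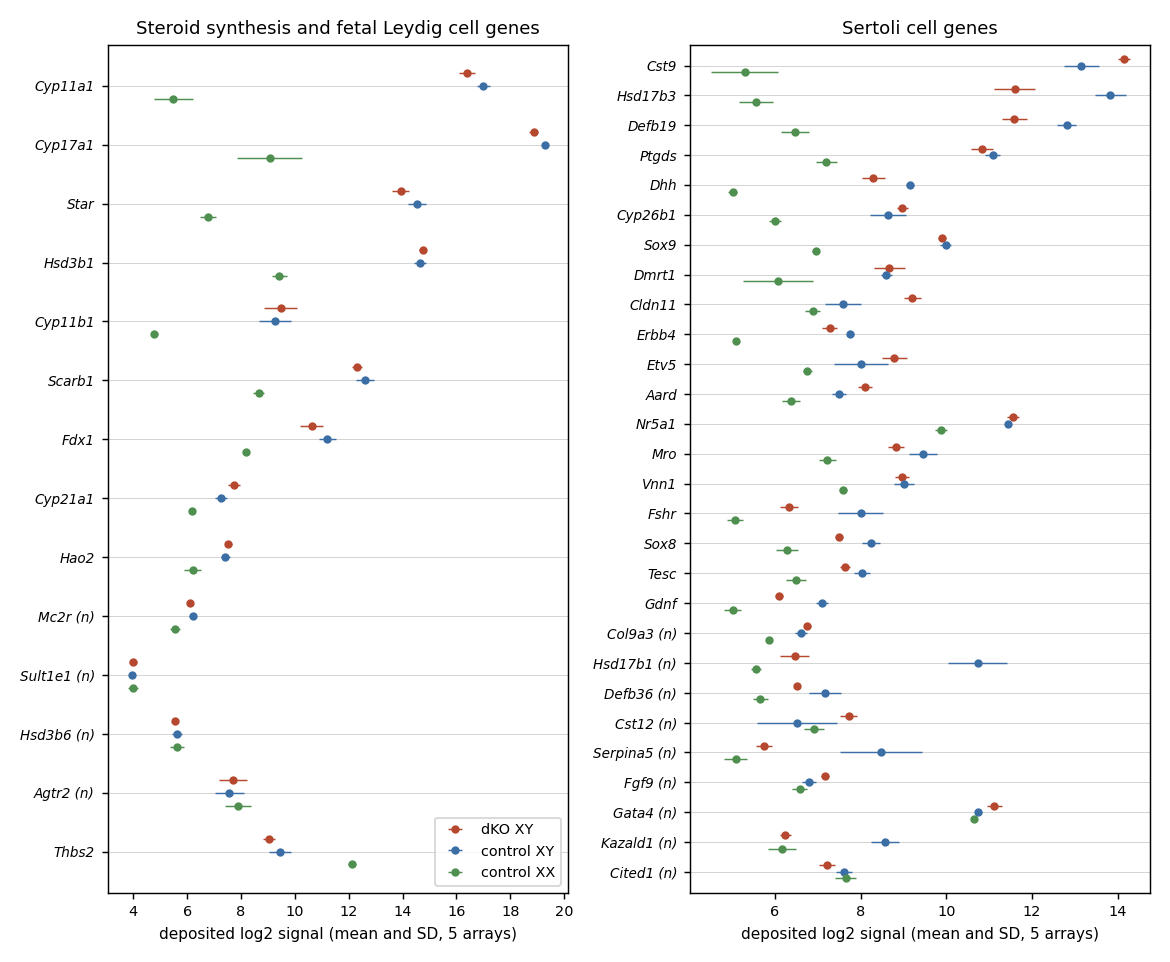
Deposited log2 signal (horizontal axis, mean and SD of 5 arrays) of the measured genes of steroid synthesis and fetal Leydig cells (left) and of Sertoli cells (right), ordered by the difference between dKO XY and control XX; "(n)" after a name marks a gene not called between them. In the upper rows dKO XY and control XY lie together to the right of control XX, while Hsd17b1, Serpina5 and Kazald1 lie near control XX.

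Genes of the response to hedgehog were read beside *Dhh*. Of 8 measured genes of the hedgehog pathway, 3 were higher in dKO XY gonads than in ovaries and 0 were lower, and the median difference was 0.21. *Hhip*, a hedgehog-binding inhibitor that the pathway itself induces, read 9.49, 9.53, 9.42, 9.33 and 10.08 in dKO XY and 5.23, 5.28, 4.96, 5.2 and 4.82 in control XX. It was higher by 4.47 ± 0.14 (limma adjusted p = 3e-12), and below control XY (11 ± 0.2) by 1.43 ± 0.14 (limma adjusted p = 7.2e-06). *Ptch1*, the hedgehog receptor and a target of the pathway, was higher by 2.82 ± 0.15 and *Gli1*, its transcriptional effector and target, by 2.25 ± 0.13. Both were called against control XX and not against control XY. Their differences from control XY were -0.49 ± 0.15 for *Ptch1* (limma adjusted p = 0.046) and -0.75 ± 0.13 for *Gli1* (limma adjusted p = 0.0017). The other 5 genes, which encode the transducer SMO, the coreceptors BOC, CDON and GAS1, and DISP1, were not called, with differences of -0.81 to 0.41.

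Interstitial and stromal genes were mixed. Of 16 measured, 4 were higher in dKO XY gonads than in ovaries and 0 were lower, with a median difference of 0.53. Against control XY, 7 were lower in dKO XY and 0 were higher, with a median difference of -0.94. The list mean was 10.03 to 10.62 on the dKO XY arrays, 11.24 to 11.44 in control XY and 9.58 to 10.19 in control XX. In 12 of the 16 genes, and in all 4 called higher, dKO XY replicate 3 was the lowest dKO XY array, as it was in 10 of 12 pericyte and smooth muscle genes and in 12 of the 19 Sertoli cell genes called higher. *Cxcl12*, a chemokine gene, read 9.8, 10.09, 9.06, 9.68 and 9.92 in dKO XY and 7.09, 7.33, 7.39, 6.67 and 7.82 in control XX. The groups were apart by 2.45 ± 0.19 (limma adjusted p = 2.3e-07), with 11.27 ± 0.11 in control XY. *Jag1*, a Notch ligand of interstitial cells, was higher by 2.36 ± 0.15, *Inhba*, the beta subunit of activin A, by 1.46 ± 0.12, and *Nr2f2*, a nuclear receptor of stromal progenitors, by 1.03 ± 0.15. The call of *Nr2f2* was lost in 4 of 15 fits that left out 1 array, among them that without control XX replicate 1 (0.95). *Wnt5a*, a WNT ligand of the stroma, read 9.91, 9.84, 9.34, 9.7 and 9.91 in dKO XY and 8.92, 9.14, 9.39, 9.01 and 9.08 in control XX. These overlapped and were not called at 0.63 ± 0.11 (limma adjusted p = 0.0008), against 11.71 ± 0.09 in control XY. *Tcf21*, a transcription factor of stromal progenitors, also overlapped, with means of 12.31 ± 0.42 in dKO XY, 13.56 ± 0.3 in control testes and 11.52 ± 0.42 in control XX.

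Few genes of vessels and basement membrane were called. Of 12 measured pericyte and smooth muscle genes, 3 were higher and 1 was lower (median 0.46), of 15 endothelial genes 1 was higher and 0 were lower (median 0.21), and of 15 basement membrane and cartilage-type collagen genes 1 was higher and 0 were lower (median 0.2). *Acta2*, smooth muscle actin, which peritubular myoid cells also make, averaged 14.2 ± 0.26 in dKO XY, 15.06 ± 0.16 in control testes and 12.48 ± 0.39 in control XX, a difference from control XX of 1.73 ± 0.17 (limma adjusted p = 1.9e-06). *Col4a1*, a basement membrane collagen gene, was higher by 1.45 ± 0.08 (limma adjusted p = 6.6e-09). *Cdh5*, the cadherin of endothelial cells, was higher by 1.02 ± 0.13, and this call was lost without control XX replicate 1 (0.98) and without dKO XY replicate 2 (0.97). The lower gene was *Myl9*, a myosin light chain gene, at -1.1 ± 0.14 (limma adjusted p = 4.3e-05). By limma at an unadjusted p below 0.05, 8 of the pericyte and smooth muscle genes were higher and 1 lower. At that level 8 endothelial genes were higher and 2 lower, and 6 basement membrane and collagen genes were higher and 1 lower.

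Whole dKO XY gonads held germ cell signals of both sexes, and the arrays do not show whether the same cells gave them. Of 20 measured genes of male germ cells, 10 were higher in dKO XY gonads than in ovaries and 0 were lower, with a median difference of 1.03. *Dppa4*, a gene of pluripotent and fetal male germ cells, read 10.47, 10.77, 9.48, 11.44 and 11.49 in dKO XY and 7.26, 6.01, 5.81, 6.31 and 6.7 in control XX. No arrays overlapped, although dKO XY replicate 3 was lowest and control XX replicate 1 highest in its group. The difference was 4.31 ± 0.37 (limma adjusted p = 5.6e-07), and control XY lay higher still at 12.02 ± 0.54. *Piwil4*, a PIWI protein gene of male transposon silencing, read 7.75, 9.21, 6.43, 8.84 and 9.34 in dKO XY and 6.1, 5.4, 5.21, 5.81 and 5.8 in control XX. The dKO XY arrays ran over a wide range that ended just above the ovaries, and the mean difference was 2.65 ± 0.6 (limma adjusted p = 0.0055), against 11.27 ± 1.38 in control XY.

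*Tdrd5*, a gene of the same pathway, was higher by 2.32 ± 0.3 (limma adjusted p = 4e-05), and *Morc1*, a male germ cell gene needed for transposon silencing, by 2.53 ± 0.49 (limma adjusted p = 0.0016). *Nanos2*, the RNA-binding protein gene that directs the male germ cell path, read 6.15, 6.53, 5.29, 6.72 and 6.67 in dKO XY and 5.03, 5.08, 4.88, 4.87 and 5.12 in control XX. All dKO XY arrays were above the ovaries, by 1.27 ± 0.22 on average (limma adjusted p = 0.00063), and the mean was close to that of control XY (6.34 ± 0.29). *Tdrd9*, a helicase gene of the same pathway, had overlapping groups and a difference of 1.76 ± 0.56 (limma adjusted p = 0.045), a call that was lost in 10 of 15 fits that left out 1 array. *Dnmt3l*, the cofactor of DNA methylation in male germ cells, read 4.37, 5.05, 4.45, 4.9 and 4.92 in dKO XY and 4.48, 4.26, 4.51, 4.4 and 4.48 in control XX. It overlapped the ovary level, with a 95% interval of -0.32 to 0.94, whereas control XY averaged 6.5 ± 0.86.

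Pluripotency genes of the list were also higher. *Pou5f1*, which encodes OCT4, read 9.13, 8.45, 8.49, 9.43 and 9.38 in dKO XY and 7.04, 5.91, 5.64, 6.48 and 6.74 in control XX. With no overlap it was higher by 2.61 ± 0.28 (limma adjusted p = 6.3e-06), at the level of control XY (8.75 ± 0.44). *Nanog*, another pluripotency factor, read 8.17, 6.72, 7.65, 8.32 and 8.11 in dKO XY and 6.06, 5.69, 5.34, 4.93 and 5.47 in control XX. The difference was 2.3 ± 0.36 (limma adjusted p = 0.00024), and dKO XY replicate 2 was the lowest of its group. Control XY averaged 6.76 ± 0.79, and dKO XY minus control XY was 1.04 ± 0.36 (limma adjusted p = 0.081). *Sox2*, the third of these factors, read 8.53, 6.93, 8.16, 8.35 and 8.32 in dKO XY and 6.84, 5.84, 5.62, 6.19 and 6.33 in control XX. The dKO XY minimum, replicate 2 again, was close to the ovary maximum, replicate 1. The dKO XY mean was higher than in control XX by 1.9 ± 0.34 (limma adjusted p = 0.00086). It was higher than in control XY by 1.42 ± 0.34 (limma adjusted p = 0.012). *Sox2* was not called between the controls, with control XY minus control XX at 0.48 ± 0.34 (limma adjusted p = 0.38).

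Genes of germ cells of both sexes went in both directions. Of 15 measured, 4 were higher in dKO XY gonads than in ovaries and 2 were lower, with a median difference of 0.35. *Ddx4*, a helicase gene of all germ cells at this age, read 14.61, 14, 14.3, 14.7 and 14.54 in dKO XY and 14.62, 13.65, 13.7, 14.17 and 14.27 in control XX. Its groups overlapped, and the 95% interval of the difference was -0.05 to 0.75. *Dazl*, an RNA-binding protein gene that licenses germ cells for either path, also overlapped, with 15 ± 0.38 in dKO XY, 13.45 ± 0.82 in control testes and 15.4 ± 0.33 in control XX (95% interval of dKO XY minus control XX -1.06 to 0.26). *Dppa3*, a gene of primordial germ cells, read 11.08, 10.1, 10.23, 11.52 and 11.55 in dKO XY and 8.2, 5.77, 5.28, 6.09 and 7.05 in control XX. It was higher by 4.42 ± 0.59 (limma adjusted p = 5.4e-05), and by 4.85 without control XX replicate 1. *Prdm14*, a regulator of primordial germ cells, was higher than in control XX by 1.65 ± 0.33 (limma adjusted p = 0.002) and than in control XY by 1.09 ± 0.33 (limma adjusted p = 0.044).

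Meiotic genes stopped short of the ovary almost without exception. Of 36 measured genes of meiotic prophase, 32 were lower in dKO XY than in control XX and 0 were higher, with a median difference of -1.7, and 30 of the 32 were also called above control XY. The list mean was 9.23 to 10.19 on the dKO XY arrays, 7.4 to 7.76 in control XY and 11.02 to 11.48 in control XX. *Mei4*, *Mlh3*, *Rnf212* and *Brdt* were not called. In 32 of the 32 genes called lower, dKO XY replicate 1 was the highest of the dKO XY arrays, and in 26 control XX replicate 1 was the lowest ovary. Without control XX replicate 1 the count of lower genes was again 32. Genes that mark germ cells in general are given above, and the part of germ cell number in these differences was not tested.

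*Stra8* and *Bhmg1* encode partners that switch on meiosis under retinoic acid. *Stra8* read 10.43, 8.62, 10.12, 9.49 and 8.99 in dKO XY and 12.1, 10.42, 10.07, 12.29 and 11.58 in control XX. These groups overlapped, since 2 ovaries were as low as the upper dKO XY arrays, and the difference was -1.76 ± 0.41 (limma adjusted p = 0.0065). *Bhmg1*, also called *Meiosin*, read 11.54, 10.56, 11.02, 10.64 and 10.03 in dKO XY and 12.81, 13.19, 13.03, 13.17 and 13.32 in control XX. Every dKO XY array was below every ovary, by 2.34 ± 0.21 on average (limma adjusted p = 8e-07), and above control XY (6.8 ± 0.21). Of 17 measured genes of oocyte differentiation, 2 were lower, 1 was higher and 14 were not called, with a median difference of -0.01. The higher gene, *Ooep*, of the oocyte cytoplasm, lost its call in 6 of 15 fits that left out 1 array. *Figla*, an oocyte transcription factor gene, was lower by 1.61 ± 0.19 (limma adjusted p = 1.4e-05), and *Sohlh2*, another, was not called at -1.17 ± 0.52 (limma adjusted p = 0.17) with overlapping groups.

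Genes of recombination and of the chromosome axis showed the same order of groups. *Meiob*, which encodes a single-strand DNA-binding protein of meiotic recombination, read 9.56, 8.29, 8.62, 7.84 and 7.57 in dKO XY and 10.47, 11.98, 11.88, 11.54 and 11.35 in control XX. The groups did not overlap, and the difference was -3.07 ± 0.32 (limma adjusted p = 4.8e-06), near midway between the controls at 48.1% of the way to the testis (5.07 ± 0.19). *M1ap*, a gene needed for meiosis in the mouse testis, read 12.48, 11.18, 11.89, 11.41 and 11.34 in dKO XY and 13.37, 14.52, 14.4, 14.69 and 14.52 in control XX. It was lower by 2.64 ± 0.27 (limma adjusted p = 4e-06) and nearer to the ovary, at 34.6%. *Rad21l*, a meiotic cohesin gene, was lower by 2.97 ± 0.29, *Terb1*, which ties telomeres to the nuclear envelope, by 2.6 ± 0.25, and *Prdm9*, which marks recombination hotspots, by 2.56 ± 0.28. *Dmc1*, the meiotic recombinase, was lower by 2.41 ± 0.22, *Sycp3*, a component of the chromosome axis, by 2.22 ± 0.21, *Hormad1*, another axis protein, by 1.38 ± 0.17, and *Tex12*, of the central element of the synaptonemal complex, by 1.79 ± 0.19. *Smc1b*, a cohesin gene, was the member nearest to the ovary among those named here, at 26.7% of the way to the testis. Its ovary mean of 16.12 lies above 16, where genes were left out of the median positions, so its position is uncertain.

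Promoters of 4 of these genes are shown. They were chosen among the genes called lower for holding a motif, and for the largest statistics. The motif is CACGTG, an E-box that reads the same on either strand, in capitals below. Each sequence is RefSeq sequence of GRCm38.p6 from 250 bases before to 50 after the transcription start, 5′ to 3′ on the gene's strand. The regions are chr7:19118295-19118594 on the minus strand for *Bhmg1*, chr10:88459337-88459636 on the plus strand for *Sycp3*, chr9:50561219-50561518 on the minus strand for *Tex12* and chr3:95559427-95559726 on the plus strand for *Hormad1*.
Bhmg1: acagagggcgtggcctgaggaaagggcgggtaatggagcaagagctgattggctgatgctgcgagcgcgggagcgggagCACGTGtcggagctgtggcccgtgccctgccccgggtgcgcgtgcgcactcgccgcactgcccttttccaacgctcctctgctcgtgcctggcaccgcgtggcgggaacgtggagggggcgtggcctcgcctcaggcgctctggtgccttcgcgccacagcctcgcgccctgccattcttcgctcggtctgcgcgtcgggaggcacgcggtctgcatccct
Sycp3: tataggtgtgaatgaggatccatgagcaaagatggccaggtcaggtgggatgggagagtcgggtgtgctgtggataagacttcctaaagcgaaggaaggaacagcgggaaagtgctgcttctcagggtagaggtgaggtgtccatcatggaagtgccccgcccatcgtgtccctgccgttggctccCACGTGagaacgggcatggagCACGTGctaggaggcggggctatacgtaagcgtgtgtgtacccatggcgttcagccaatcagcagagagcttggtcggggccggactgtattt
Tex12: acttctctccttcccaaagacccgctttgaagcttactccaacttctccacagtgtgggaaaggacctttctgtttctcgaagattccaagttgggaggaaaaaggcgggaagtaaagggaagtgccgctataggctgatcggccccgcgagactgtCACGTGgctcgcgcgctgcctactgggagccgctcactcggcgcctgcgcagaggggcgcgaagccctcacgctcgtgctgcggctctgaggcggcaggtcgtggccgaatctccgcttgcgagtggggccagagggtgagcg
Hormad1: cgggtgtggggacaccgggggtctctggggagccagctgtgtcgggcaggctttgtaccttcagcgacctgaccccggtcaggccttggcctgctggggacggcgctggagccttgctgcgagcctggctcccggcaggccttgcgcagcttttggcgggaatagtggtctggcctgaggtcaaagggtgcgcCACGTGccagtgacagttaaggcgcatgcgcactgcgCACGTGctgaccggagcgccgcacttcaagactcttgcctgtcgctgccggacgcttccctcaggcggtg
The motif begins 171 bases before the start in *Bhmg1* and 93 before it in *Tex12*, and *Sycp3* and *Hormad1* hold 2 copies, the nearest 43 and 20 bases before the start. Of the 36 meiotic genes measured, 29 were matched in the promoter table and 9 held the motif, 7 of which were called lower. The matched genes without the motif were also called lower, except *Mei4* and *Mlh3*. Of all 27025 gene symbols in the table, 8.09% held it. A match describes these letters and shows no binding. The same search with AAGGTCA, a motif of NR5A1-type receptors, on both strands found it in 1 of 8 matched steroid genes (*Sult1e1*, not called) and in 5.38% of all symbols.

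**Figure D4:**
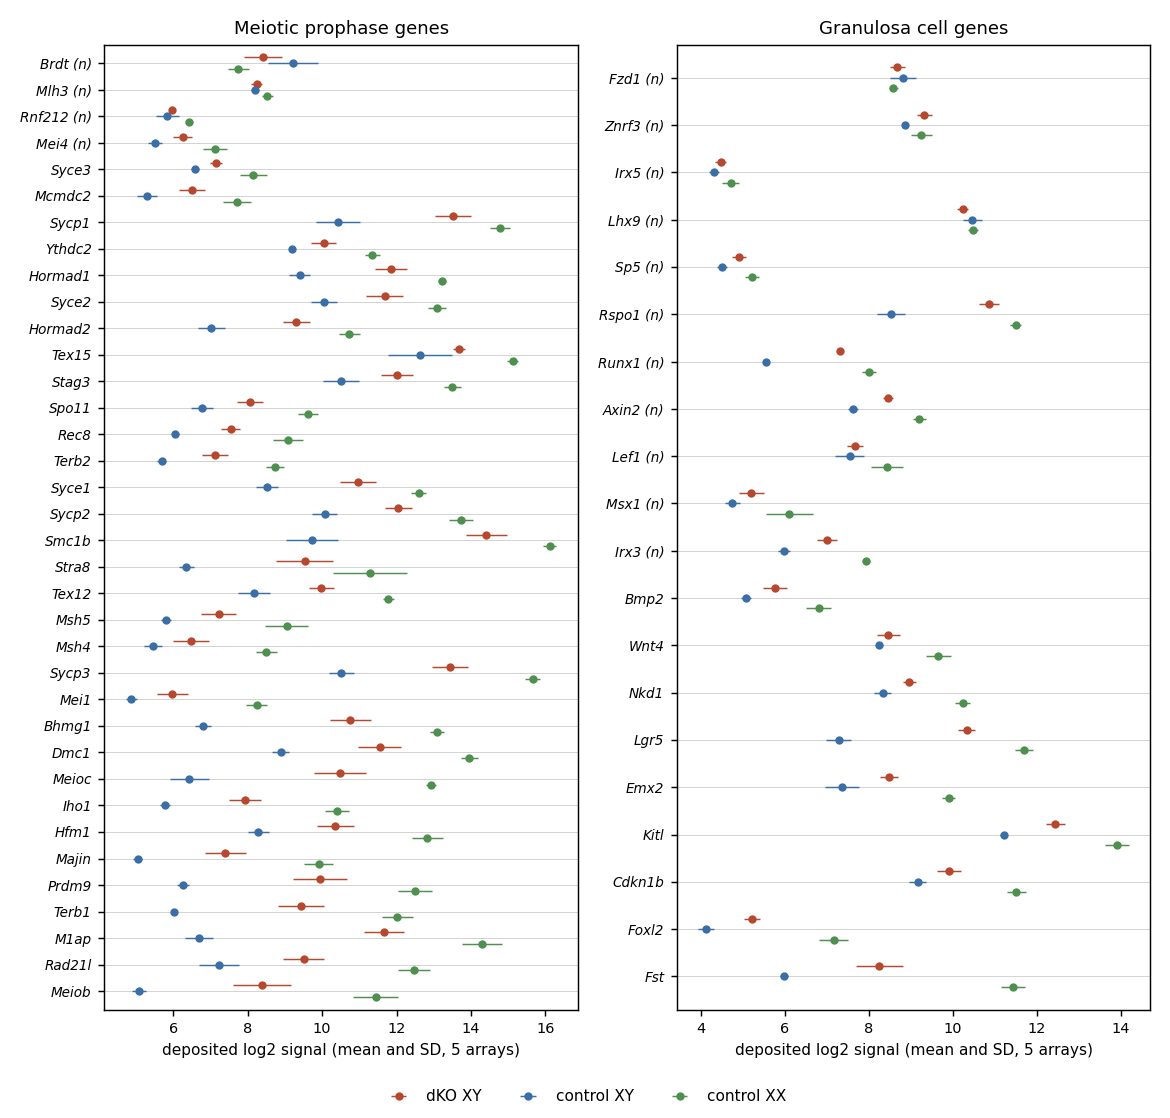
Deposited log2 signal (horizontal axis, mean and SD of 5 arrays) of the measured meiotic prophase genes (left) and granulosa cell genes (right), ordered by the difference between dKO XY and control XX; "(n)" after a name marks a gene not called between them. For 30 meiotic genes the dKO XY mean lies between control XY and control XX with both differences called, and for the granulosa genes the dKO XY level runs from the testis side (Wnt4) to the ovary side (Rspo1).

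Granulosa cell genes were also lower. Of 20 measured, 9 were lower in dKO XY than in control XX and 0 were higher, with a median difference of -0.92. Of these, 5 lay between the controls and 4 were not called against control XY. *Fst*, which encodes the activin-binding protein follistatin, read 8.65, 8.39, 8.84, 7.48 and 7.9 in dKO XY and 11.51, 11.7, 11.56, 11.41 and 10.96 in control XX. The dKO XY arrays varied more than the ovaries and lay below all of them, by 3.17 ± 0.21 on average (limma adjusted p = 2.8e-08). They were above control XY (5.98 ± 0.09) by 2.27 ± 0.21 (limma adjusted p = 3.9e-06).

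*Lgr5*, an R-spondin receptor gene, read 10.59, 10.4, 10.41, 10.17 and 10.08 in dKO XY and 12, 11.82, 11.51, 11.5 and 11.62 in control XX. It was lower by 1.36 ± 0.14 (limma adjusted p = 4.8e-06) but lay nearer to the ovary than to control XY (7.28 ± 0.3), at a position of 30.9%. *Kitl*, the ligand of the germ cell receptor KIT, was lower by 1.46 ± 0.13, and *Emx2*, a homeobox gene of the early gonad, by 1.42 ± 0.16. Those not called against control XY were *Wnt4*, *Cdkn1b*, *Nkd1* and *Bmp2*. *Wnt4*, the WNT ligand of the fetal ovary, read 8.65, 8.57, 8.73, 8.09 and 8.27 in dKO XY and 9.49, 9.96, 9.95, 9.58 and 9.29 in control XX. It was lower by 1.19 ± 0.14 (limma adjusted p = 1.5e-05) and stood beside control XY (8.25 ± 0.09). *Cdkn1b*, a cell cycle inhibitor of pregranulosa cells, was lower than in the ovary by 1.6 ± 0.14 and above every testis, by 0.75 ± 0.14 (limma adjusted p = 0.0028). *Nkd1*, a target of WNT signalling, was lower than in the ovary by 1.27 ± 0.11 and likewise above every testis, by 0.64 ± 0.11 (limma adjusted p = 0.0015).

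*Rspo1* and *Runx1* came closest to the ovary among the granulosa genes called between the controls, at positions of 21.4% and 28.6%. *Rspo1*, the R-spondin that amplifies WNT signals, read 11.19, 10.77, 10.73, 11 and 10.59 in dKO XY and 11.55, 11.57, 11.37, 11.65 and 11.32 in control XX. The arrays did not overlap, but the difference of -0.63 ± 0.15 (limma adjusted p = 0.0068) was too small for a call, and dKO XY was above control XY (8.52 ± 0.34) by 2.33 ± 0.15 (limma adjusted p = 9.5e-08). *Runx1*, a transcription factor that keeps pregranulosa identity, differed from control XX by -0.7 ± 0.08 and from control XY by 1.75 ± 0.08. *Irx3*, a homeobox gene of granulosa cells, was just under the size for a call at -0.94 ± 0.1 (limma adjusted p = 9.7e-06).

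Of the 12 autosomal genes farthest below the ovary, several were in no list. *H2bc1*, a testis-type H2B histone gene, read 11.71, 11.63, 12.01, 10.87 and 10.83 in dKO XY and 13.98, 15.15, 15.91, 14.57 and 14.28 in control XX. No arrays overlapped, and the mean was lower by 3.37 ± 0.35 (limma adjusted p = 4.7e-06). Its neighbour *H2ac1*, an H2A histone gene, was lower by 2.78 ± 0.31 (limma adjusted p = 9.1e-06). The ovary mean of *H2ac1*, 16.32, lies above 16, so the size of its difference is uncertain. Near-identical histone genes may share probes, so the split between copies is uncertain. *Tnfrsf19*, a receptor gene of the tumour necrosis factor family, read 9.49, 9.11, 9.35, 8.58 and 9.09 in dKO XY and 12.05, 12.66, 12.46, 12.04 and 12.03 in control XX. It lay midway between the controls, lower than the ovary by 3.12 ± 0.17 (limma adjusted p = 3.1e-09) and at 51.8% of the way to control XY.

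*Calb1*, a calcium-binding protein gene, read 5.48, 5.96, 5.87, 5.14 and 5.61 in dKO XY and 7.4, 9.85, 9.69, 7.43 and 8.7 in control XX. The ovaries were spread over more than 2 units and still lay above every dKO XY array, with a mean difference of -3.01 ± 0.39 (limma adjusted p = 4.7e-05). *H2-K1*, a class I histocompatibility gene, was lower by 2.79 ± 0.22 (limma adjusted p = 1.8e-07), and *Inca1*, an inhibitor of cyclin-dependent kinase, by 2.88 ± 0.25 (limma adjusted p = 7.3e-07). The histocompatibility genes are a family of close copies, so the level of a single member is uncertain. Among the 12 genes highest above the ovary and not yet described, *Adh1*, an alcohol dehydrogenase gene, differed by 5.76 ± 0.17, *Tacr3*, the receptor of neurokinin B, by 4.52 ± 0.13, and *Pdlim3*, a muscle-type LIM protein gene, by 4.5 ± 0.35.

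Few surface epithelium genes were called against the ovary. By limma at an unadjusted p below 0.05, 3 were higher and 6 were lower in dKO XY. The genes given with values below were not called against control XX. Of 13 measured, 1 was higher in dKO XY gonads than in ovaries (*Aldh1a1*) and 1 was lower (*Krt18*), and the median difference was -0.26. Without control XX replicate 1, 4 or 5, or without dKO XY replicate 1, 2 or 5, the number lower was 2. *Muc16*, a mucin gene of mesothelial-type epithelia, read 8.52, 8.71, 7.99, 8.67 and 9.07 in dKO XY and 8.65, 8.47, 8.8, 8.57 and 8.53 in control XX. The groups overlapped in full, with a 95% interval of -0.38 to 0.36, and dKO XY was above control XY (7.22 ± 0.32) by 1.37 ± 0.17 (limma adjusted p = 9.1e-05). *Krt19*, a keratin gene, averaged 7.8 ± 0.25 in dKO XY, 6.61 ± 0.22 in control testes and 7.82 ± 0.56 in control XX, and *Upk3b*, a uroplakin gene of this epithelium, averaged 11.32 ± 0.22 in dKO XY gonads, 9.51 ± 0.44 in testes and 11.72 ± 0.28 in ovaries. *Wt1*, a transcription factor of surface epithelium and supporting cells, differed from control XX by -0.45 ± 0.13 and from control XY by 1.03 ± 0.13.

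A small set left the range of the controls. Over autosomal genes, 22 were called above both controls in dKO XY and 8 below both, of which 19 and 6 have established symbols. *Nts*, the precursor of the peptide neurotensin, read 9.07, 8.84, 8.98, 8.21 and 8.61 in dKO XY and 6.33, 5.73, 6.91, 5.85 and 5.94 in control XX. The dKO XY arrays were all higher, by 2.59 ± 0.24 (limma adjusted p = 1.7e-06), and exceeded control XY (6.96 ± 0.46) by 1.78 ± 0.24 (limma adjusted p = 0.00019). *Cldn11*, the claudin of Sertoli cell tight junctions, read 9.34, 9.45, 9.25, 8.97 and 9.04 in dKO XY and 7.06, 7.03, 6.78, 6.62 and 6.89 in control XX. It was higher than in control XX by 2.33 ± 0.17 (limma adjusted p = 7.7e-08) and than in control XY (7.58 ± 0.42) by 1.63 ± 0.17 (limma adjusted p = 1.1e-05). *Lin7a*, a scaffold protein gene of cell junctions, was higher than in control XX by 2.22 ± 0.19 and than in control XY by 1.51 ± 0.19, and *Glb1l3*, a beta-galactosidase-like gene, by 1.39 ± 0.1 and 1.54 ± 0.1.

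Below both controls, *Cd55*, an inhibitor of complement, read 8.94, 9.05, 8.54, 8.8 and 9.19 in dKO XY and 9.79, 10.1, 10.34, 10.11 and 9.63 in control XX. It was lower than in the ovary by 1.09 ± 0.14 (limma adjusted p = 3.7e-05) and than in control XY (10.39 ± 0.16) by 1.49 ± 0.14 (limma adjusted p = 5.3e-06). *Elovl2*, which lengthens polyunsaturated fatty acids, was lower than in control XX by 1.45 ± 0.17 and than in control XY by 1.1 ± 0.17. *Emilin3* and *Fras1*, which encode matrix proteins, were lower than in control XX by 1.09 ± 0.18 and 1.06 ± 0.17. *Angptl7*, an angiopoietin-like gene, read 5.68, 6.3, 5.89, 5.52 and 6.75 in dKO XY and 6.4, 7.39, 8.08, 7.28 and 6.96 in control XX. These groups overlapped, and the mean was lower by 1.19 ± 0.29 (limma adjusted p = 0.0095). The calls of *Angptl7*, *Emilin3* and *Fras1* were lost without control XX replicate 3, when the differences were -0.98, -0.99 and -0.93. That of *Fras1* was also lost without control XX replicate 2, and that of *Cd55* without dKO XY replicate 3, each just under the size for a call. *Nts* and *Lin7a* lie on chromosome 10, as does *Amh*, and *Cd55* and *Prdm14* on chromosome 1, as does *Inhbb*. The remaining genes named here as above or below both controls lie on other chromosomes. The part of linkage to the targeted genes was not tested.

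**Figure D5:**
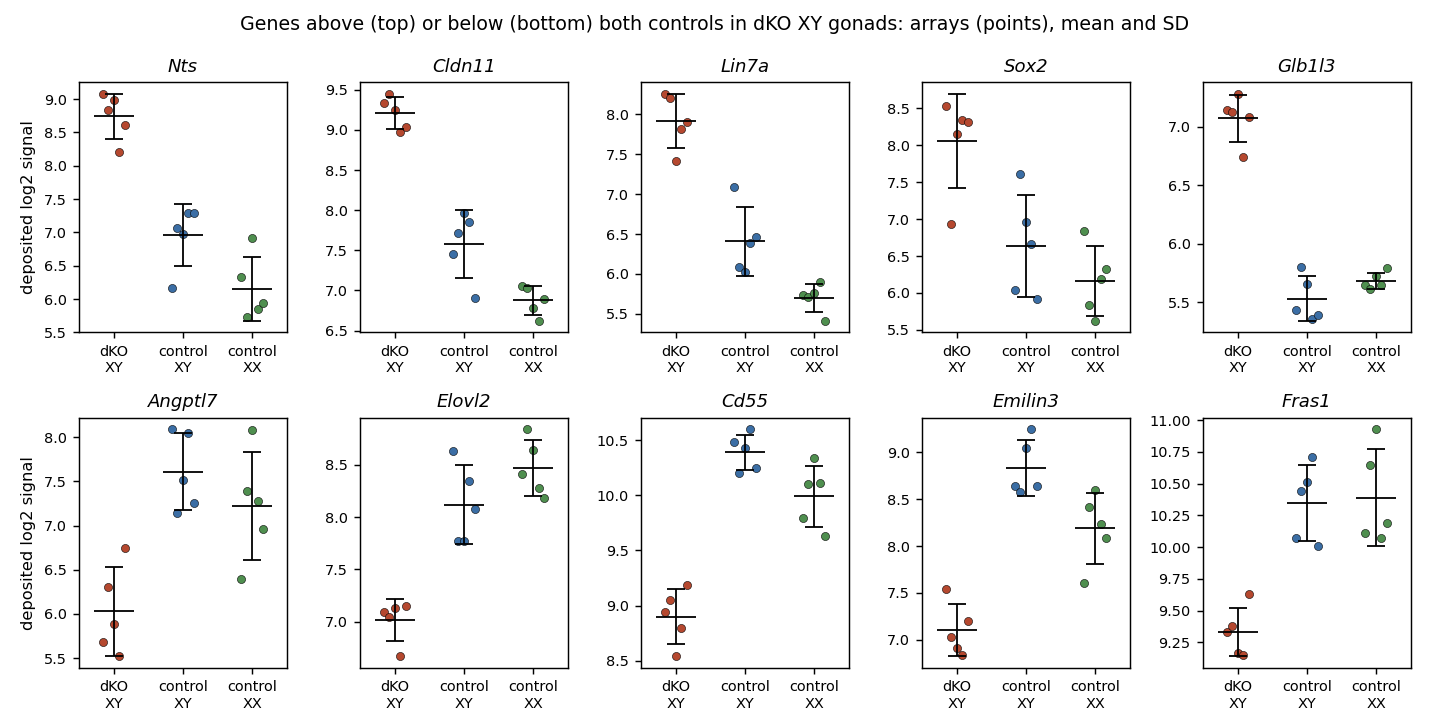
Deposited log2 signal (vertical axis, each panel with its own range) of the 5 genes highest above both controls (upper row) and the 5 farthest below both (lower row) on each array, with dKO XY, control XY and control XX from left to right; points are arrays and bars are the group mean and SD (n = 5). Nts, Cldn11, Lin7a and Glb1l3 have no dKO XY array within either control, whereas for Angptl7 the lowest control XX array lies within dKO XY.

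The family of the deleted ligands was read from lists that leave out *Fst* and *Bmp2*, which stand with the granulosa genes and were both lower than in control XX (by 3.17 and 1.03). Of the 16 other measured ligands and inhibitors of the TGF-beta family in the list, 3 were higher in dKO XY gonads than in ovaries and 0 were lower (median 0.11), and of 21 receptors and SMADs 1 was higher and 0 were lower (median -0.14). By limma at an unadjusted p below 0.05, 7 of the ligands and inhibitors were higher and 3 lower. At that level 3 of the receptors and SMADs were higher and 9 lower. *Inha*, the alpha subunit that turns activin into inhibin, read 13.77, 13.75, 13.33, 14 and 13.91 in dKO XY and 10.49, 10.92, 10.35, 10.35 and 10.95 in control XX. The groups were apart by 3.14 ± 0.18 (limma adjusted p = 5.3e-09), with 14.62 ± 0.37 in control XY. *Bmp5*, a bone morphogenetic protein gene, was higher by 1.65 ± 0.21 (limma adjusted p = 4.2e-05), and *Tgfbr3*, a coreceptor that binds inhibin, by 1.04 ± 0.06 (limma adjusted p = 1.4e-08). *Amhr2*, the receptor of AMH, read 11.02, 10.95, 11.14, 10.7 and 10.81 in dKO XY and 11.27, 11.7, 11.55, 11.18 and 11.32 in control XX. All dKO XY arrays were below the ovaries, by a difference too small for a call (-0.48 ± 0.12; limma adjusted p = 0.01), and were higher than control XY (9.05 ± 0.2) by 1.88 ± 0.12 (limma adjusted p = 9.3e-08).

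On the X chromosome, 67 of 3391 clusters (1.98%) were higher in dKO XY gonads than in ovaries and 104 (3.07%) were lower, led by *Xist*, the RNA of the inactive X, at 5.59 in dKO XY and 16.39 in control XX. On the Y chromosome, 14 of 558 clusters (2.51%) were higher. The chromosome complement differs between these groups by design, so sex chromosome dose and gonadal state cannot be told apart there.

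Few markers of other cells were called. Of 13 macrophage and immune genes 0 were called in either direction (median 0.01), with list means of 6.46 to 6.73 in dKO XY and 6.32 to 6.75 in control XX, and of 8 mesonephros genes 0 were called (median -0.07). By limma at an unadjusted p below 0.05, 3 of the macrophage genes and 3 of the mesonephros genes differed. At that level 8 cell cycle genes were higher and 3 lower, and 6 stress genes were higher and 1 lower. Erythroid genes at that level were 0 higher and 6 lower. Of 16 cell cycle genes, *Plk1*, a mitotic kinase gene, was higher by 1.08 ± 0.2 with overlapping groups (0.93 and not called without control XX replicate 2) and *Cdkn1c*, a cell cycle inhibitor, was lower by 1.19 ± 0.17. Of 11 stress genes, *Hspa1a*, a heat shock protein gene, was higher by 1.22 ± 0.1 (limma adjusted p = 2.7e-07). Of 8 erythroid genes, the number called lower ran from 0 to 3 as 1 array was left out, with 3 without control XX replicate 1, control XX replicate 2 or dKO XY replicate 3. With all arrays *Ank1*, an ankyrin gene of red cells, was lower by 1.23 ± 0.4 (limma adjusted p = 0.048), a call lost in 11 of 15 fits that left out 1 array, and the list median was -1.04. *Slc4a1*, the anion exchanger of red cells, read 8.72, 7.15, 10.07, 7.54 and 9.05 in dKO XY and 9.27, 8.84, 12.23, 11.91 and 10.36 in control XX. The ovaries spread over more than 3 units and overlapped dKO XY, and the difference was -2.02 ± 0.67 (limma adjusted p = 0.053). The list means ran from 6.7 to 7.89 in dKO XY and from 7.46 to 9.8 in control XX, and the part of blood content in other results was not tested.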

How the data were processed

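RNA of whole gonads was amplified with a Nugen kit and hybridized to Affymetrix Clariom D arrays, 1 per sample, and the replicates are stated to be biologically independent. The authors deposited RMA-normalized log2 signal, 1 value per transcript cluster, and the build of the array annotation is not given in the sources used here. Arrays count no molecules, so their number limits the precision. Of 72688 rows, 6732 control probe rows were left out. Of the 65956 clusters tested, 30638 carried 1 gene symbol, 2176 several and 33142 none. A gene was read by its brightest cluster, judged by the mean of all 15 arrays.

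All 15 arrays entered a single limma 3.58.1 fit in R 4.3.3 (lmFit and eBayes, two-sided), in which each group had its own mean, and p values were adjusted over all clusters by the method of Benjamini and Hochberg. The fit was tested on simulated data. Levels are mean ± SD and differences are dKO XY minus control XX (or minus control XY) ± SE. List counts and medians are descriptions without a set test.

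The named genes were the 12 highest and 12 lowest called autosomal genes with 1 established symbol and no overlap, the markers, the targeted genes, in each list the members with the largest statistics (5 at most), members whose role is the point of a sentence, and the 5 genes highest above and 5 farthest below both controls. Members and lists were chosen with earlier results of these data known. Alternatives covered the replicate block, the arrays fitted, variance, normalization, array weights, dim clusters, the size threshold, the cluster read and each array left out. Promoter sequences came from the RefSeq table.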

Additional observations from a re-analysis of the deposited data

Results flagged for a closer look

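In 26 of the 342 groups of 5 arrays behind the named genes (7.6%), a single array lay far from the other 4 (its gap to the nearest was large against the range of the group by Dixon's criterion), where chance gives about 1 group in 20. Of these arrays, 6 were control XX replicate 1 and 5 were dKO XY replicate 3. Control XX replicate 1 was high for *Cyp11a1* (6.74, against 4.97 to 5.37 on the other 4 ovaries) and low for *M1ap* (13.37), *Rad21l* (11.7), *Terb1* (11.27), *H2-K1* (9.77) and *Inca1* (10).

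Among dKO XY arrays, replicate 3 was low for *Fdx1* (9.91, against 10.72 to 10.92 on the other 4), *Nr5a1* (11.32), *Jag1* (10.04), *Inhba* (8.08) and *Acta2* (13.76). Replicate 1 was low for *Cyp11b1* (8.37, against 9.68 to 9.78) and high for *Figla* (7.37, against 6.06 to 6.37). Replicate 2 was low for *Sox2* (6.93) and *Prdm14* (5.53), replicate 4 was low for *Elovl2* (6.67), and replicate 5 was high for *Hhip* (10.08). Each dKO XY value lay on the same side of all control XX arrays as the rest of its group.

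In control XY, replicate 1 was low for *Cyp11b1* (8.22) and *Nts* (6.16), replicate 2 was high for *Nr2f2* (12.04) and *Prdm14* (6.72), replicate 3 was high for *Dmrt1* (8.83), and replicate 5 was low for *Nkd1* (7.98) and *Amhr2* (8.7). In control XX, replicate 5 was low for *Hsd17b1* (5.35) and high for *Tgfbr3* (8.93).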

How the results depend on the processing

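No called gene reversed its direction in any alternative, while the differences of *Kazald1*, *Krt19* and *Muc16*, none of them called, changed sign in 9 fits (sizes up to 0.18). Apart from the size threshold, 2685 of 2736 pairs of gene and alternative stayed on the same side of the threshold, 42 lost the call and 9 gained one, among 114 genes of which 94 were called. *Ank1* and *Tdrd9* lost the call in 11 and 10 of 15 fits that left out 1 array, *Nr2f2* in 4, *Cdh5* and *Fras1* in 2 each, and *Angptl7*, *Cd55*, *Emilin3* and *Plk1* in 1 each. With array medians centred *Ank1*, *Cdh5* and *Tdrd9* also lost it, as did *Ank1* and *Tdrd9* with ordinary variances, *Ank1* and *Cdh5* with a second quantile normalization, and *Ank1* with the dKO XY and control XX arrays alone. *Slc4a1* gained one with array weights (-2.15), without dim clusters (-2.02) and without dKO XY replicate 3 (-2.41), control XX replicate 1 (-2.33) or control XX replicate 2 (-2.44), *Irx3* with array weights and without dKO XY replicate 3 (-1.02 each), and *Sohlh2* without control XY replicate 2 (-1.17).

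The size threshold moved the counts by construction. With a difference of at least 1.5, 357 clusters were higher and 288 lower in dKO XY than in control XX (autosomal 317 and 231). With no minimum these were 4977 and 4956 (autosomal 4633 and 4651). At 1.5 and with no minimum, the testis-higher genes held 174 and 1626 testis-like, 12 and 579 between, and 185 and 2024 not called against control XX. The ovary-higher genes held 104 and 1784 called against control XX alone, 37 and 848 between, and 322 and 1697 not called against control XX. Granulosa genes called lower numbered 3 at 1.5 and 15 with no minimum, and cholesterol genes called higher 7 at 1.5.

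With 1 array left out, 747 to 860 clusters were higher and 788 to 981 lower (autosomal 671 to 768 and 682 to 873). Of the testis-higher genes 304 to 353 were testis-like, 42 to 58 between and 446 to 557 not called against control XX, and of the ovary-higher genes 264 to 374 were called against control XX alone, 103 to 126 between and 513 to 594 not called. The lists gave 19 to 19 Sertoli, 9 to 9 steroid, 11 to 11 cholesterol and 9 to 11 male germ cell genes higher, and 31 to 32 meiotic and 8 to 11 granulosa genes lower. In small lists the counts ran from 0 to 5 cell cycle genes higher (5 without control XX replicate 4) and 1 to 2 lower, 1 to 2 basement membrane genes higher (2 without dKO XY replicate 2 or 3), and 0 to 1 endothelial, mesonephros and oocyte genes higher and 0 to 1 TGF-beta receptor and SMAD genes lower. The other alternatives left these counts within 1.5 times.

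Arrays of dKO XY and control XX with the same number correlated at -0.175 to 0.159 after group means were removed, and 1 of 5 correlated best with its own number, so the numbers were not taken as a pairing. With the replicate block, 716 autosomal clusters were higher and 745 lower, *Tdrd9* lost its call (limma adjusted p = 0.055) and *Slc4a1* gained one (limma adjusted p = 0.024).

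The stretched scale leaves the fold size of all differences uncertain. Whole gonads leave cell number and RNA per cell mixed, and signals near the background medians of 3.46 to 3.74 carry little information.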
